A study of Mus musculus with 18 samples.

Results

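MHC class I molecules show fragments of a cell's own proteins on its surface, where CD8+ T cells read them. The 10 genes described here encode the machinery that does this: the heavy chains *H2-K1* and *H2-D1*, their light chain *B2m*, the peptide transporter *Tap1* and *Tap2*, the loading chaperone *Tapbp*, the immunoproteasome subunits *Psmb8*, *Psmb9* and *Psmb10*, and the transcriptional regulator *Nlrc5*. They were taken by name from the 55491 rows of the gene count table, all 10 were found, and all 10 passed the filter on low counts that left 16174 genes for testing. The set was chosen by measured values: *Tapbp*, *Tap2*, *H2-K1* and *H2-D1* had been seen to be higher in tendon fibroblasts (TFs) given Cre gesicles in 20% O2. That contrast is therefore given below as a description, with no test and no calls.

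TFs of mouse tail tendon were cultured for 4 days and their poly-A RNA was sequenced in 18 libraries, 3 in each of 6 groups. Ctrl TFs, labelled wild-type, came per the study's methods from mice that lacked Cre, which in its breeding scheme carry floxed *Hif1a*. cKO TFs, labelled *Hif1a* knockout, came from mice whose floxed *Hif1a* was deleted by a Cre driven by the tendon gene *Scx*. In a further set, Ctrl TFs received Cre gesicles. Gesicles are cell-derived vesicles used to carry protein into cells. The label names Cre as their cargo, and the study's text does not describe these libraries, their dose or their mice. Each set was kept in 20% or 1% O2. The study describes TFs of male and female mice of 4 to 6 months on a mixed C57BL6J/129S1 background, grown out of tail tendon through collagen gel, so the cells had been expanded in culture, and its Scx-driven Cre does not act in cells that never made *Scx*. No group received gesicles without Cre, so the vesicle, its cargo and any loss of *Hif1a* cannot be told apart. The study names 3 mice per genotype but the labels do not tie a library to a mouse, so p-values measure the spread between these libraries.

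Library totals ran from 6857558 counts (cKO 1% O2 replicate 1) to 51806453, and the other 17 libraries held at least 26967440. Values are CPM, counts scaled to a common library size after TMM normalization. The whole-gene *Hif1a* count was not lower in cKO than in Ctrl TFs in 1% O2 (log2 fold change 0.08 ± 0.14 SE, edgeR adjusted p = 0.778), and was at -0.13 ± 0.14 with gesicles in 1% O2. A whole-gene count does not separate the floxed exon from the rest of the transcript, so it checks neither label. Cre reads were found in 5 of 6 cKO libraries, with 5 counts at most, and in none of the others. Reads of eGFP, with 5 counts at most, were found in cKO libraries only. Those of tdTomato, with 3 counts at most, were found in gesicle libraries only. The 10 hypoxia genes used as a check of the O2 labels were higher in 1% O2 in all 3 sets of TFs. Of 10 tendon fibroblast markers all but *Kera* were well above 0 in every library. *Kera*, which encodes the proteoglycan keratocan, stayed at or below 0.43 CPM.

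The class I pathway starts in the cytosol. Proteasomes cut proteins into peptides, the TAP transporter pumps the peptides into the endoplasmic reticulum, and tapasin holds an empty heavy chain and *B2m* next to the transporter until a peptide is bound. Interferons raise these genes in most cell types and exchange the catalytic subunits of the standard proteasome for those of the immunoproteasome. Fibroblasts, like most nucleated cells, also express class I genes without such a signal.

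Of the 10 genes, 7 lie in the MHC on chromosome 17 (GRCm38, GENCODE M21), between 33915899 and 35267499. *Psmb9*, *Tap1*, *Psmb8* and *Tap2* sit next to each other within 34.3 kb (chr17:34181987-34216321). *H2-K1* (chr17:33996017-34000347, minus strand), *Tapbp* (chr17:33915899-33929292, plus strand) and *H2-D1* (chr17:35262730-35267499, plus strand) flank that block. *B2m* is on chromosome 2 (chr2:122147686-122153083), and *Psmb10* (chr8:105935735-105938444) and *Nlrc5* (chr8:94434356-94527272) are on chromosome 8. *Tap1* and *Psmb9* are read away from each other, and 212 bases of their annotated exons overlap on opposite strands. Exons of *Tapbp* share 29% of their length with *Zbtb22* and *Gm19412*, those of *Tap2* share 18.5% with *Gm15821* and *Gm20496*, and those of *Psmb8* share 14.7% with *Gm20496*. The sources used here do not state whether reads were counted by strand, so part of these counts could come from the neighbour. *H2-K1* and *H2-D1* belong to a family of class I genes with related sequences. Of all windows of 100 bases in their annotated transcripts, 0.957% of those of *H2-K1* and 3.59% of those of *H2-D1* also occur letter for letter in another gene. RSEM splits reads that match several genes between them. The reads, paired and of 151 bp before trimming, were longer than a window, so these shares do not give the share of reads split.

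The heavy chain and *B2m* promoters share short motifs known from class I genes, and the stretches that hold them are shown. A link of the motifs to the levels of these genes was not tested. RefSeq promoters on GRCm38.p6 were found for 8 of the 10 genes, all but *Tap2* and *Nlrc5*, and the 250 bases before each RNA start were searched on both strands. Annotated GENCODE exons reach into every window searched except that of the *H2-K1* run shown. The windows of *H2-D1*, *Tapbp*, *Psmb8* and *Psmb9* lie wholly within the annotated gene, so some matches may lie in transcribed sequence. Capitals mark the motif letters. In the first run they are the NF-kB motif, the X2 core TGACGC and the Y box CCAAT read from the other strand, and in the second the interferon-stimulated response element (ISRE), the NF-kB motif and the Y box. The last 2 runs are the 30 bases around the NF-kB motif of *H2-K1* and of *H2-D1*.
*H2-K1* upstream, chr17:34000348-34000597, minus strand: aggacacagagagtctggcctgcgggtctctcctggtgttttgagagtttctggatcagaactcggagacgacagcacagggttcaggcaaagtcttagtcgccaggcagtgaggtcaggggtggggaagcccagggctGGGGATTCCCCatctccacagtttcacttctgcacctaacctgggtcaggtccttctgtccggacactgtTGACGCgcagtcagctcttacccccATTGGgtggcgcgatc
*B2m* upstream, chr2:122147437-122147685, plus strand: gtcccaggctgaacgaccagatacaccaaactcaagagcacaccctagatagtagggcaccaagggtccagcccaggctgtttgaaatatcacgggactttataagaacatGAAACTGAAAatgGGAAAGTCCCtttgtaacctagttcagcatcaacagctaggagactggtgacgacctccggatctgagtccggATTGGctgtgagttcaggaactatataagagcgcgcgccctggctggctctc
*H2-K1* site, chr17:34000438-34000467, minus strand: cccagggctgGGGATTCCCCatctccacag
*H2-D1* site, chr17:35262914-35262943, plus strand: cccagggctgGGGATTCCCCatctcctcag
The NF-kB motif searched was GGGANTNNCC, where N is any base. It was present in *H2-K1*, *H2-D1* and *B2m*, 3 of 8 members, and in 3.97% of 27025 genes with a promoter in the table. In the heavy chain genes it matched on both strands, as overlapping matches. The ISRE searched was GAAANNGAAA, present in *B2m* alone among the members and in 3.46% of all genes. Related elements that depart from these letters were not searched, so a promoter without a match may still hold one. The X2 core was present in *H2-K1* and *H2-D1* (6.93% of all genes), and the Y box in 6 of 8 members (37.5% of all genes). The HIF core ACGTG was present in *Psmb10* alone (18.5% of all genes), and GCGTG in 5 of 8 (30.9% of all genes). The windows of *Tap1* and *Psmb9* overlap, so their matches are in part the same bases. A match of letters is a description of sequence and not of binding.

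Per kb of annotated exon, the levels of the 10 genes in Ctrl TFs in 20% O2 covered a wide range. The length counts every annotated exon of a gene, used in these cells or not, so their order depends on the annotation. *B2m* was the most abundant, at 412 ± 25.6 CPM per kb (SD, n = 3), followed by *H2-D1* at 108 ± 16.5 and *Tapbp* at 49.8 ± 5.4. *H2-K1* stood at 24.6 ± 5.53 CPM per kb. The transporter genes were lower, with *Tap2* at 12.3 ± 1.52 and *Tap1* at 7.32 ± 1.86 CPM per kb. *Psmb10* stood at 8.16 ± 1.61, *Psmb8* at 2.23 ± 1.07 and *Psmb9* at 0.733 ± 0.269 CPM per kb. *Nlrc5* was the lowest, at 0.279 ± 0.244 CPM per kb.

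**Figure D1:**
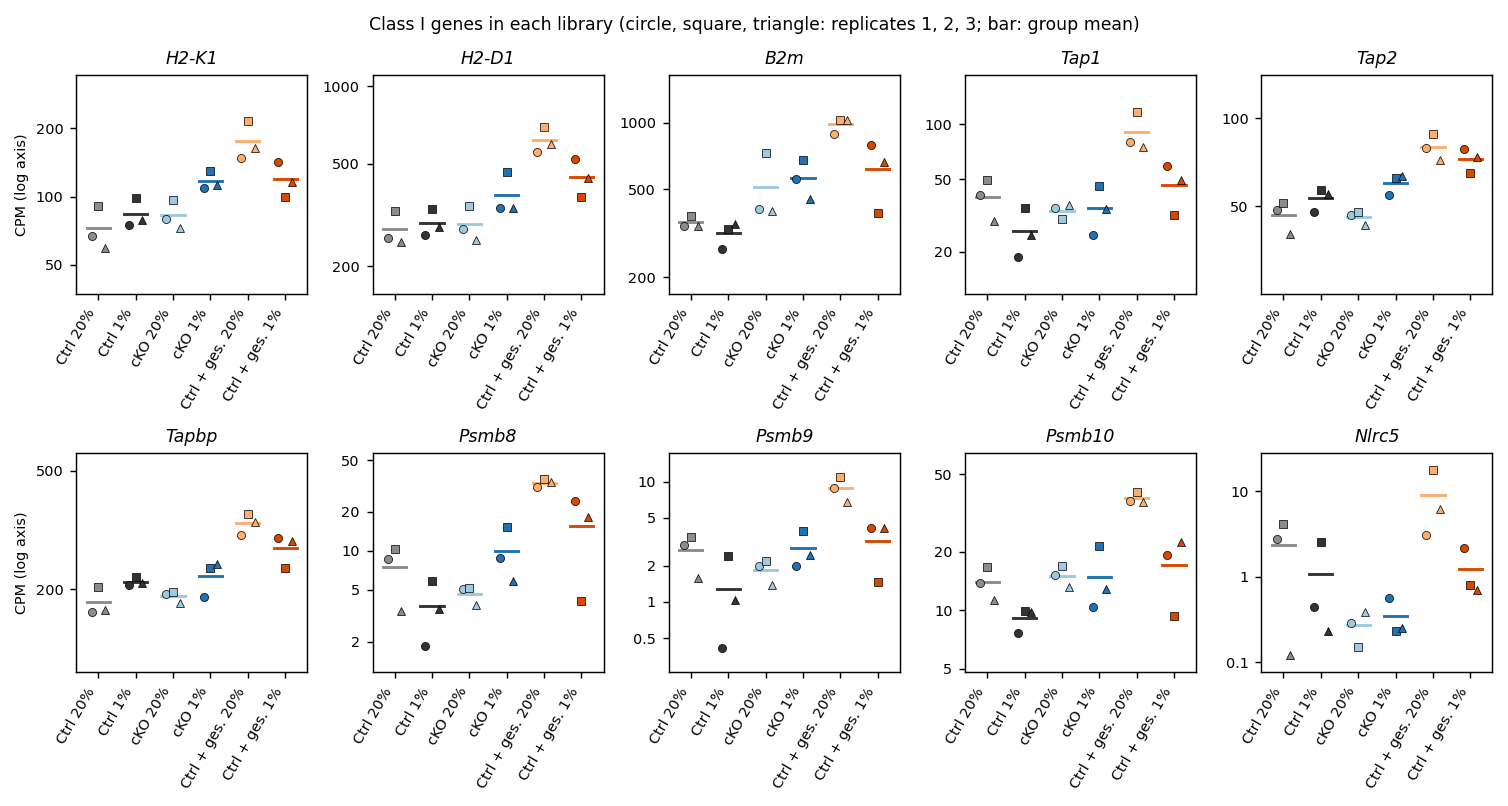
CPM (log axis) of the 10 class I genes in each of the 18 libraries; circles, squares and triangles are replicates 1, 2 and 3, and bars are group means. Ctrl TFs with gesicles in 20% O2 have the highest mean of every gene, and replicate 2 of the gesicle group in 1% O2 is the lowest of its group for 9 of 10 genes.

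Across the 6 groups, the mean of all 10 genes was highest in Ctrl TFs with gesicles in 20% O2. Ctrl TFs with gesicles in 1% O2 came next for 9 of 10 genes, and cKO TFs in 1% O2 followed these for 7 of 10. The lowest mean was in Ctrl TFs in 1% O2 for 5 genes, in Ctrl TFs in 20% O2 for 3 and in cKO TFs in 20% O2 for 2. Most of this order lay within the spread of the libraries. Of 50 steps from a group to the next in the order of a gene, 14 separated groups that did not overlap, beside 4.78% of the 80870 such steps over all genes tested. These steps include the groups of the contrast that chose the genes.

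Gesicles in 20% O2 are the contrast from which the gene set was drawn, and its values are given without a test. In Ctrl TFs in 20% O2 the chaperone gene *Tapbp* stood at 168, 203 and 171 CPM, and with gesicles at 305, 360 and 337 CPM. All gesicle libraries lay above all Ctrl libraries, with a log2 fold change of 0.89 ± 0.12 (SE). The transporter gene *Tap2* stood at 48.3, 51.0 and 40.0 CPM without and at 79.2, 88.0 and 72.0 CPM with gesicles. *H2-K1* stood at 67.3, 90.6 and 59.4 CPM without and at 149, 216 and 164 CPM with gesicles. *H2-D1* stood at 259, 327 and 249 CPM without and at 557, 695 and 598 CPM with gesicles. For all 4 genes the gesicle group lay wholly above, and the log2 fold changes were 0.78 ± 0.12 for *Tap2*, 1.28 ± 0.19 for *H2-K1* and 1.15 ± 0.17 for *H2-D1*.

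The other 6 genes differed in size more than in direction. *B2m* stood at 341, 380 and 343 CPM without and at 887, 1031 and 1033 CPM with gesicles, a log2 fold change of 1.47 ± 0.25. *Psmb8* stood at 8.74, 10.4 and 3.44 CPM without and at 30.9, 35.7 and 34.1 CPM with gesicles, and it had the largest log2 fold change of the 10 genes, 2.16 ± 0.55. *Nlrc5* was the only member whose groups overlapped, and its libraries were far apart in both: 2.79, 4.19 and 0.122 CPM without and 3.11, 17.6 and 6.17 CPM with gesicles. *Tap1*, *Psmb9* and *Psmb10* had log2 fold changes of 1.18 ± 0.28, 1.72 ± 0.50 and 1.44 ± 0.29. Every gesicle library lay above every Ctrl library for 9 of 10 genes, beside 6.88% of all genes tested. The choice of the genes bears on both the sizes and this count, and nothing is read from them.

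Gesicles in 1% O2 are the same treatment in 6 other libraries, none of which entered the contrast above. The SE and p-values still rest on a spread estimated over all 18 libraries, those of that contrast included. All 10 genes were on the higher side with gesicles, by log2 fold changes of 0.20 to 2.05 (median 0.72, against -0.0082 over all genes tested), but none passed the test: the edgeR adjusted p was 1 for each of them. For a call, groups had to differ 1.5-fold or more with an edgeR adjusted p below 0.05, and no gene of the 16174 was called (0%). At an unadjusted p under 0.05, 9 of the 10 were higher, beside 1.03% of all genes tested. A total of 316 genes had an unadjusted p under 0.05 in either direction, and DESeq2 called 0 genes as well.

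Replicate 2 of the gesicle group in 1% O2 stood apart from the other gesicle libraries. It was the lowest of its group for 9 of 10 genes, beside 32.8% of all genes tested, and for 5 of 10 it lay at or below the highest Ctrl library in 1% O2. Replicates 1 and 3, set apart here after their values were seen, lay above every Ctrl library in 1% O2 for 9 of 10 genes, beside 7.38% of all genes tested. The summed CPM of 12 interferon-induced genes stood at 120 in replicate 2, and at 2010 and 1340 in replicates 1 and 3. In Ctrl TFs in 1% O2 the same sum stood at 107, 484 and 144. Without replicate 2, the lowest edgeR adjusted p of a member was 0.159, for *B2m* (log2 fold change 1.23) and *Psmb8* (2.52), and still no gene was called.

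Of the genes of peptide loading, *Tapbp* and *Tap2* had small differences and narrow errors, and *Tap1* a larger difference and a wider error. *Tapbp* stood at 207, 219 and 210 CPM in Ctrl TFs in 1% O2 and at 297, 236 and 291 CPM with gesicles, so the groups did not overlap. Its log2 fold change was 0.37 ± 0.12 (95% interval 0.12 to 0.63, unadjusted p = 0.00691). *Tap2* stood at 47.7, 56.7 and 54.9 CPM without and at 78.5, 64.7 and 73.4 CPM with gesicles, again without overlap (0.44 ± 0.12, unadjusted p = 0.00218). *Tap1*, its partner in the transporter, stood at 18.8, 34.9 and 24.6 CPM without and at 58.8, 31.7 and 49.4 CPM with gesicles, and here replicate 2 fell among the Ctrl libraries (0.84 ± 0.28, unadjusted p = 0.00929).

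The heavy chains and *B2m* lay above Ctrl in every gesicle library in 1% O2. *H2-K1* stood at 75.0, 98.6 and 79.0 CPM without and at 143, 99.8 and 116 CPM with gesicles (0.50 ± 0.19, unadjusted p = 0.0156). *H2-D1* stood at 264, 335 and 284 CPM without and at 523, 372 and 439 CPM with gesicles (0.60 ± 0.17, unadjusted p = 0.00307). *B2m* stood at 268, 330 and 350 CPM without and at 795, 390 and 662 CPM with gesicles (0.96 ± 0.25, unadjusted p = 0.00148). Counting *Tapbp* and *Tap2*, 5 of 10 genes did not overlap, beside 2.97% of all genes tested that lay wholly above.

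*Psmb8* and *Psmb9* had the largest differences of the 10 genes, with wider errors than all others but *Nlrc5*. *Psmb8* stood at 1.85, 5.90 and 3.58 CPM without gesicles in 1% O2 and at 24.4, 4.11 and 18.3 CPM with them, so replicates 1 and 3 were high and replicate 2 lay among the Ctrl libraries. Its log2 fold change was 2.05 ± 0.56 (95% interval 0.86 to 3.24, unadjusted p = 0.00214). *Psmb10* stood at 7.65, 9.92 and 9.77 CPM without and at 19.3, 9.38 and 22.5 CPM with gesicles (0.90 ± 0.28, unadjusted p = 0.00604). *Psmb9* stood at 0.414, 2.41 and 1.04 CPM without and at 4.09, 1.46 and 4.12 CPM with gesicles (1.33 ± 0.51, unadjusted p = 0.02). *Nlrc5*, which activates the class I promoters, was the exception, at 0.442, 2.56 and 0.233 CPM without and 2.18, 0.809 and 0.692 CPM with gesicles (0.20 ± 0.95, unadjusted p = 0.834). Its 95% interval ran from -1.81 to 2.22, and its sign turned when Ctrl replicate 1 (-0.15), Ctrl replicate 3 (-0.27) or gesicle replicate 1 (-0.48) was left out.

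**Figure D2:**
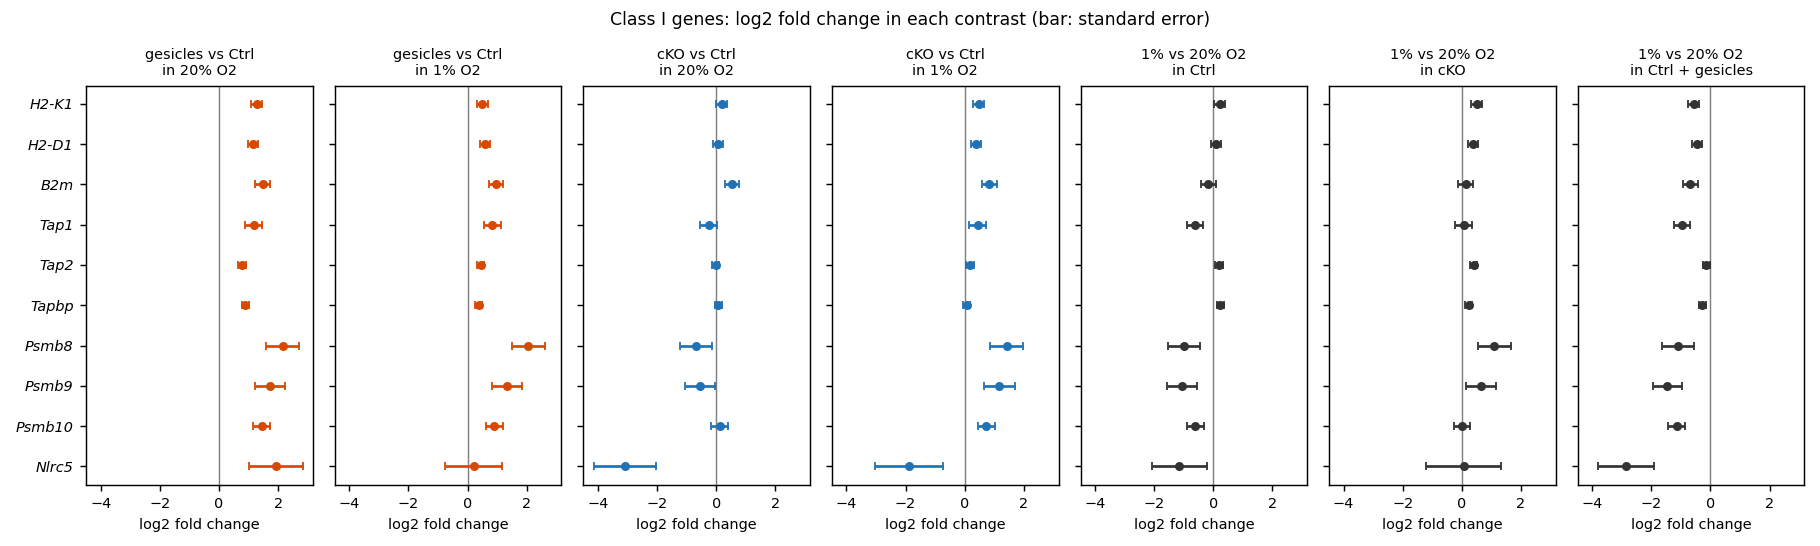
log2 fold change of the 10 class I genes in the 7 contrasts (points), with the standard error of the fit of all 18 libraries (bars); the vertical line marks no difference. All 10 genes lie to the right of the line with gesicles in 20% and in 1% O2 and to the left for 1% against 20% O2 in gesicle-treated TFs, and *Nlrc5* has the widest bars.

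The immunoproteasome subunits replace *Psmb5*, *Psmb6* and *Psmb7* of the standard proteasome, and their counts per kb were set against these partners within each library. *Psmb8* amounted to 1.82, 2.31 and 0.755% of *Psmb5* in Ctrl TFs in 20% O2, and to 5.65, 7.62 and 7.69% with gesicles in 20% O2. In gesicle-treated TFs in 1% O2 it amounted to 5.25, 0.906 and 3.43%, against 0.352, 1.42 and 0.738% in Ctrl TFs in 1% O2. Per kb of all annotated exons, *Psmb8* thus stayed a small part of its pair in every library. *Psmb9* was a smaller one, between 0.167% and 4.28% of *Psmb6* over the 18 libraries. *Psmb10* was the nearest of the 3 to its partner, with 32.0, 39.9 and 26.5% of *Psmb7* in Ctrl TFs in 20% O2 and 75.9, 87.1 and 89.3% with gesicles. In the other 15 libraries it lay between 19.0 and 53.3%. With gesicles in 1% O2 the partners themselves had log2 fold changes of 0.03 ± 0.16 for *Psmb5*, 0.02 ± 0.15 for *Psmb6* and -0.01 ± 0.14 for *Psmb7*. The length of a gene was that of all its annotated exons together: 3381 bases for *Psmb8*, 3660 for *Psmb9* and 1705 for *Psmb10*. Annotated exons that these cells do not use lower a value per kb. The ratios and the order of the 3 genes therefore depend on the annotation, while the length is the same in every library. These ratios rest on counts, and say nothing of assembled proteasomes.

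**Figure D3:**
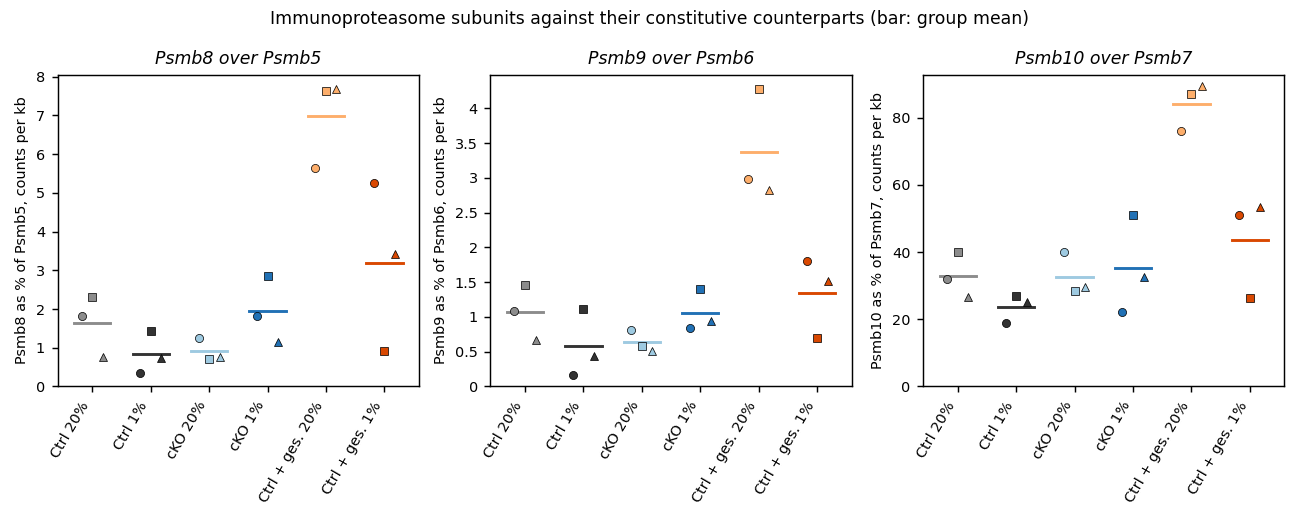
Counts per kb of the immunoproteasome genes as a percentage of the standard subunit each replaces (vertical axes from 0), by library; symbols are replicates 1, 2 and 3 and bars are group means. The 3 gesicle libraries in 20% O2 are the highest for each gene, and *Psmb10* reaches 89.3% of *Psmb7* while *Psmb9* does not pass 4.28% of *Psmb6*.

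Loss of *Hif1a* was compared with Ctrl TFs in 1% O2, the O2 level at which HIF-1α is active. None of the 10 genes was called, beside 0.0866% of all genes tested (14 genes). On the higher side in cKO TFs were 9 of them, with a median of 0.46 over the 10 (0.0062 over all genes tested). At an unadjusted p under 0.05, 6 were higher, beside 7.08% of all genes. *B2m* had the lowest p: it stood at 268, 330 and 350 CPM in Ctrl and at 558, 680 and 450 CPM in cKO TFs, without overlap (0.83 ± 0.25, unadjusted p = 0.00434, edgeR adjusted p = 0.183). DESeq2 called it alone of the 10 (0.84, adjusted p = 0.0499), just inside the threshold, and DESeq2 made more false calls than edgeR on simulated counts. *H2-K1* stood at 109, 130 and 113 CPM in cKO TFs in 1% O2, all above the Ctrl libraries (0.48 ± 0.19, edgeR adjusted p = 0.231). *H2-D1* and *Psmb10* were the other genes without overlap, at 0.37 ± 0.17 and 0.73 ± 0.29, which makes 4 of 10 beside 12.0% of all genes. *Psmb8* was at 1.41 ± 0.56 and *Psmb9* at 1.16 ± 0.52, with overlap, and *Tap1*, *Tap2* and *Tapbp* were at 0.43 ± 0.28, 0.18 ± 0.12 and 0.07 ± 0.12. *Nlrc5* went the other way, at -1.88 ± 1.15 (edgeR adjusted p = 0.373), on 4, 8 and 10 counts in the cKO libraries. Without Ctrl replicate 2, which held 86 *Nlrc5* counts, it was at -0.20. The interferon-induced sum stood at 260, 928 and 148 CPM in cKO TFs in 1% O2. Replicate 2, with 928, was also the highest of the cKO libraries for *H2-K1*, *H2-D1*, *B2m*, *Tap1* and the 3 immunoproteasome genes. Without it the log2 fold changes were 0.41 (*H2-K1*), 0.21 (*H2-D1*), 0.69 (*B2m*), 0.21 (*Tap1*), 0.94 (*Psmb8*) and 0.38 (*Psmb10*). *Psmb9* was no lower than 0.77 with any library of this contrast left out. The part of the interferon-induced transcripts in the difference was not tested. Sex was unbalanced between the genotypes: *Xist*, expressed in female cells, was found in replicates 2 and 3 of both Ctrl groups and in replicate 1 of both cKO groups, and was at 0 counts in the other Ctrl and cKO libraries. With *Xist* as a covariate *B2m* was at 0.80 (edgeR adjusted p = 0.181) and no member was called. The summed CPM of 5 muscle and mural markers was lower in cKO than in Ctrl TFs, at 38.3 to 49.9 against 66.6 to 79.5 in 1% O2, and at most 40.7 against at least 69.8 in 20% O2. The sum of 10 tendon fibroblast markers overlapped in 1% O2, at 5520 to 9210 against 5720 to 13100. Singly, 9 of these were tested in 1% O2, and 1 was called higher and 0 lower in cKO TFs, beside 0.0866% of all genes. At an unadjusted p under 0.05, 2 were higher and 2 lower. The part of either set of markers in the difference was not tested.

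In 20% O2, cKO and Ctrl TFs were set side by side without a test, as the Ctrl libraries also entered the contrast that drew attention to the genes. In cKO TFs 5 genes were higher and 5 lower (median 0.02). *B2m* alone did not overlap, at 410, 733 and 400 CPM in cKO TFs (0.54 ± 0.25), beside 10.7% of all genes that lay wholly above. Without cKO replicate 2 it was at 0.19. *Nlrc5* stood at 0.287, 0.153 and 0.385 CPM in cKO TFs, on 8, 6 and 17 counts, a log2 fold change of -3.09 ± 1.06. In Ctrl TFs in 20% O2 replicates 1 and 2 held 104 and 142 *Nlrc5* counts and replicate 3 held 4, which is close to the 3 counts taken as the lowest level that a library can show. The interferon-induced sum was likewise high in Ctrl replicates 1 and 2 only, with 643, 1120 and 173 CPM in Ctrl and 181, 175 and 124 CPM in cKO TFs.

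Oxygen was compared within each set of TFs. In cKO TFs, where no library was shared with the contrast that chose the genes, all 10 were on the higher side in 1% O2, by 0.003 (*Psmb10*) to 1.10 (*Psmb8*), with a median of 0.31 (-0.0368 over all genes). None was called, beside 3.06% of all genes tested. At an unadjusted p under 0.05, 3 were higher, beside 10.4% of all genes, and 3 did not overlap, beside 10.3% that lay wholly above. *Tap2* was nearest to the threshold, with 46.8, 47.6 and 43.0 CPM in 20% and 54.4, 62.5 and 63.3 CPM in 1% O2 (0.39 ± 0.12, edgeR adjusted p = 0.0813). *H2-K1* stood at 79.7, 96.5 and 72.7 CPM in 20% O2, all below the 3 libraries in 1% O2 (0.50 ± 0.19, edgeR adjusted p = 0.145). *Psmb8* stood at 5.09, 5.14 and 3.85 CPM in 20% and 8.82, 15.3 and 5.83 CPM in 1% O2 (1.10 ± 0.55, edgeR adjusted p = 0.27). The signs of *B2m*, *Tap1*, *Psmb10* and *Nlrc5* turned when a library was left out.

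In Ctrl TFs the 10 genes were split, with 4 higher and 6 lower in 1% O2 and a median of -0.39. *Tapbp* was wholly higher in 1% O2 (0.23 ± 0.12), beside 16.4% of all genes, and *Psmb10* wholly lower (-0.61 ± 0.28), beside 13.3%. The heavy chains, *Tap2* and *Tapbp* were on the higher side by 0.08 to 0.23, whereas *Tap1*, *Psmb8*, *Psmb9* and *Nlrc5* were lower by 0.62 ± 0.28, 1.00 ± 0.55, 1.06 ± 0.51 and 1.15 ± 0.93 on the log2 scale, and *B2m* by 0.17 ± 0.25. Without Ctrl 1% O2 replicate 2, *Psmb9* was at -1.92 and *Nlrc5* at -2.84. The interferon-induced sum spanned 173 to 1120 CPM in 20% and 107 to 484 CPM in 1% O2.

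In gesicle-treated TFs all 10 genes were lower in 1% than in 20% O2, by 0.14 (*Tap2*) to 2.86 (*Nlrc5*) on the log2 scale, with a median of -0.82. For 9 of 10 the groups did not overlap, beside 11.0% of all genes that lay wholly below. *Nlrc5* had a log2 fold change of -2.86 ± 0.95, *Psmb9* of -1.45 ± 0.50 and *Psmb10* of -1.15 ± 0.28. The heavy chains were at -0.56 ± 0.19 (*H2-K1*) and -0.47 ± 0.17 (*H2-D1*), and *B2m* at -0.68 ± 0.25. The interferon-induced sum spanned 2760 to 4630 CPM in 20% O2 and 120 to 2010 CPM in 1% O2. This contrast and the gesicle contrast in 20% O2 share the 3 gesicle libraries in 20% O2.

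The 10 genes varied together from library to library. Over the 45 pairs of members, Pearson's r of log2 CPM across the 18 libraries ran from 0.433 (*B2m* and *Nlrc5*) to 0.973 (*H2-K1* and *H2-D1*), with a median of 0.812. After the group means were taken out the median was 0.723. *Psmb8* and *Psmb9* were at 0.949 and *Tap1* and *Psmb9*, which start from the same stretch of DNA, at 0.943. Leaving out the 9 pairs with *Nlrc5*, the lowest r was 0.685. These values are a description, since libraries share groups and depth. The 18 libraries also include those of the contrast that chose the genes, and that choice can raise r. The same holds for the likeness and the mean z-score given next. Pairs of other genes were not compared.

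The 5 other genes whose level across the 18 libraries was most like the mean of the 10 were *Ifi204* (r = 0.964), *Ifi211* (0.962), *Gbp2* (0.957), *Ube2l6* (0.948) and *Bst2* (0.947). After the group means were taken out, their r ran from 0.844 (*Ube2l6*) to 0.956 (*Gbp2*). The mean z-score of the 10 genes was highest in gesicle 20% O2 replicate 2, at 1.94, which also had the highest interferon-induced sum, at 4630 CPM. It was lowest in Ctrl 1% O2 replicate 1, at -1.24, which had the lowest sum, at 107 CPM. Gesicle 1% O2 replicate 2 stood at -0.33, within the range of the Ctrl libraries.

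**Figure D4:**
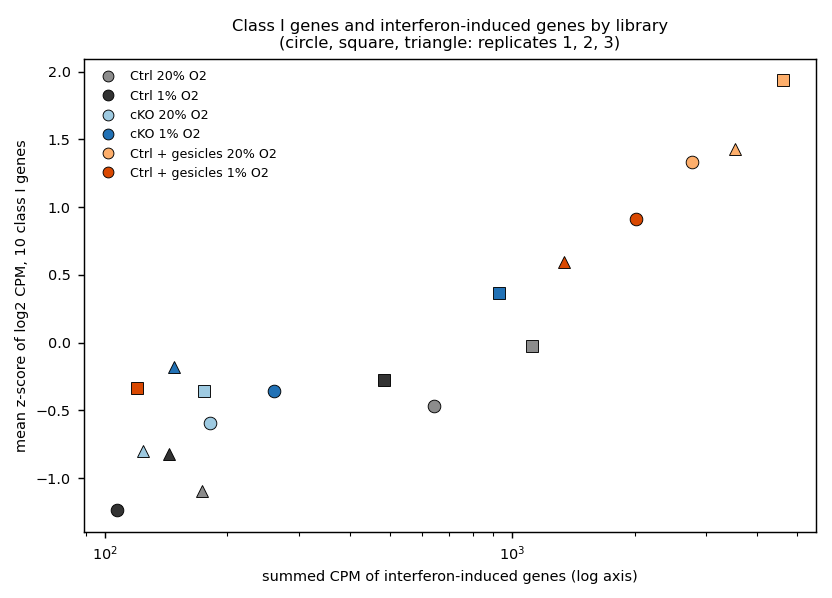
Mean z-score of log2 CPM over the 10 class I genes (vertical axis) against the summed CPM of 12 interferon-induced genes (log axis) in the 18 libraries; colours are groups and symbols are replicates 1, 2 and 3. The 3 gesicle libraries in 20% O2 lie at the upper right, from 1.33 to 1.94, and gesicle 1% O2 replicate 2 (120 CPM, -0.33) lies among the Ctrl and cKO libraries.

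The wider pathway was read from lists of related genes, given here for gesicles in 1% O2, where 0 genes of any list were called. Of 14 other class I heavy chains and related genes 10 were tested and 9 were on the higher side. At an unadjusted p under 0.05, 3 were higher, beside 1.03% of all genes tested. The largest were *H2-Q6* (3.10 ± 1.13) and *H2-T10* (1.24 ± 0.96), both near the lowest level that a library can show: *H2-Q6* stood at 0 to 0.0894 CPM without and 0.0647 to 0.871 CPM with gesicles, and *H2-T10* at 0.0828 to 0.268 and 0.129 to 0.784 CPM. Among the abundant genes of this list, *H2-T23* stood at 36.6 to 46.7 CPM without and 44.9 to 104 CPM with gesicles (0.96 ± 0.29, unadjusted p = 0.00419). *H2-T22* stood at 44.6 to 59.8 and 46.8 to 114 CPM (0.70 ± 0.27, unadjusted p = 0.0212), and both overlapped. Of 9 genes of peptide loading and trimming, 6 were higher, and *Erap1*, which trims peptides in the endoplasmic reticulum, was the largest (0.65 ± 0.22, unadjusted p = 0.00881), with *Calr* next (0.20 ± 0.14). Of 6 proteasome genes, 5 were higher, led by the activator subunits *Psme2* (0.54 ± 0.20) and *Psme1* (0.42 ± 0.17). Of 17 regulators tested, 9 were higher and 8 lower. *Irf2*, an interferon regulatory factor, was at 0.26 ± 0.16. Of 2 class II genes tested both were lower, *H2-Eb1* at -0.55 ± 0.49 and *H2-Ab1* at -0.38 ± 0.23. Of 12 interferon-induced genes all were higher, with a median of 2.82. At an unadjusted p under 0.05, 9 were higher, beside 1.03% of all genes tested. Their summed CPM stood at 120 in gesicle replicate 2, and at 2010 and 1340 in replicates 1 and 3. *Isg15*, a ubiquitin-like protein, was at 4.10 ± 1.66 and *Bst2*, which tethers virus particles, at 3.83 ± 1.05. All 10 hypoxia genes were lower with gesicles in 1% O2, 5 of them at an unadjusted p under 0.05. In either direction, 316 of the 16174 genes tested had such a p.

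The hypoxia genes aside, 4 genes of these 6 lists were called in the other tested contrasts. Each was higher in 1% than in 20% O2 in cKO TFs. In that contrast 3.06% of all genes tested were called, and 8 of the 10 hypoxia genes. *Calr* (calreticulin) and *Pdia3*, chaperones that hold the heavy chain for tapasin, had log2 fold changes of 0.71 ± 0.14 (edgeR adjusted p = 0.00925) and 0.65 ± 0.10 (edgeR adjusted p = 0.0027). Both also fold other secreted proteins. *Ifngr1*, a receptor chain for interferon gamma, was at 0.72 ± 0.11 (edgeR adjusted p = 0.00194). *H2-Ab1*, a class II chain, was at 1.83 ± 0.24 (edgeR adjusted p = 0.000559), between 1.47 and 1.51 CPM in 20% and 4.23 and 6.15 CPM in 1% O2. In cKO against Ctrl TFs in 1% O2, 0 genes of these 6 lists were called.

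Leukocytes carry much class I RNA, so their markers were read in every group. The summed CPM of 9 leukocyte and macrophage markers spanned 13.1 to 20.3 in Ctrl and 13.2 to 25.7 in gesicle-treated TFs in 20% O2, and 15.1 to 20.0 and 12.3 to 23.2 in 1% O2. In cKO TFs it spanned 10.7 to 24.8 in 20% and 13.1 to 20.3 in 1% O2, so no group stood apart. Most of it was *Lyz2*, between 8.57 and 22.2 CPM. The macrophage genes *Cd68*, at 0.331 to 2.66 CPM, and *Csf1r*, at 0.425 to 2.36 CPM, were found in every library. *Cd3e* was at 0 in all 18 libraries, and *Ptprc* did not pass 0.162 CPM, *Adgre1* 0.136 CPM, *Itgam* 0.11 CPM, *Tyrobp* 0.204 CPM and *Cd79a* 0.0864 CPM. In bulk RNA, more cells with a transcript and more transcript per cell cannot be told apart. Tendon fibroblast markers summed to 10800 to 12800 CPM in Ctrl and 8110 to 11100 CPM in gesicle-treated TFs in 20% O2.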

How the data were processed

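Poly-A RNA of 18 libraries of mouse tail TFs was sequenced as 151 bp paired-end reads. The authors trimmed reads with Cutadapt, mapped them to GRCm38 with STAR, counted genes with RSEM 1.3.3 and deposited the estimated counts as whole numbers, without normalization. These expected counts were tested with edgeR 4.0.16 (TMM, filterByExpr, robust quasi-likelihood F test) in 1 fit of all 18 libraries with 1 coefficient per group, with Benjamini-Hochberg adjustment over 16174 genes. Calls needed an adjusted p below 0.05 together with a 1.5-fold difference or more. The SE of a log2 fold change is its size over the root of F. CPM were computed from library totals of 6857558 to 51806453 counts, scaled by TMM, where 3 counts are worth 0.0592 to 0.427 CPM, which covers counting error only.

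Samples were grouped by the labels. The members and the wider lists were chosen with earlier results of these data known. Members got p-values in the 3 contrasts that share no library with gesicles against Ctrl in 20% O2. The spread behind these p-values was estimated over all 18 libraries, those of that contrast included, so it is not free of the choice. The genes named are the 10 members, the checks (*Hif1a*, Cre, eGFP, tdTomato and *Kera*), the wider genes called in a tested contrast or among the 2 largest of their list with gesicles in 1% O2, and the 5 most alike. A gene of the regulator list that this rule names is not reported here. *Psmb5*, *Psmb6* and *Psmb7* as partners, *Psme1*, *H2-T22*, *H2-T23*, *Xist* and the cell type markers were named after their values were seen. After group means were taken out, libraries with the same replicate number correlated above 0.1 in every pair for gesicles against Ctrl in 1% O2 (0.193 to 0.284), in 20% O2 (0.346 to 0.462) and for O2 in Ctrl (0.271 to 0.458), and not in the other contrasts. *Xist* followed the replicate number across O2 and gesicles within each genotype, and lay in differently numbered libraries of the genotypes. Alternatives were DESeq2 1.42.0, RLE size factors, other filters, the replicate block, a fit of the 2 groups compared, no fold change minimum, *Xist* as a covariate for genotype, and each library left out. Gene models are GENCODE M21 and promoters RefSeq, both GRCm38. No 2 libraries were copies (lowest chi-square per degree of freedom 15.3). On simulated counts edgeR made about as many false calls as its threshold allows and DESeq2 several times as many, and the limit set for DESeq2 in that trial was widened after its first result. R 4.3.3, Python 3.11.15 and matplotlib 3.10.9 were used. The labels give 10% serum where the paper gives 1%.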

Additional observations from a re-analysis of the deposited data

Results flagged for a closer look

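For 3 members, 1% O2 lay on opposite sides of 20% O2 in different sets of TFs, without overlap of the groups in either set. The difference between the sets was not tested for any of them. Taken singly, 16.4% of all genes tested lay wholly higher in 1% O2 in Ctrl TFs and 10.3% in cKO TFs. In gesicle-treated TFs 11.0% lay wholly lower. The share of all genes with such an opposite pair was not computed. *Tapbp* was higher in 1% than in 20% O2 in Ctrl TFs (log2 fold change 0.2317) and lower in gesicle-treated TFs (-0.2799). *H2-K1* was higher in 1% O2 in cKO TFs (0.4985) and lower in gesicle-treated TFs (-0.5611). *Psmb8* was higher in 1% O2 in cKO TFs (1.0979) and lower in gesicle-treated TFs (-1.1042). The gesicle libraries in 20% O2 that these values share are those that drew attention to the genes. In gesicle-treated TFs the sum of 12 interferon-induced genes was also lower in 1% O2, and its part in these values was not tested.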

How the results depend on the processing

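No member was called in the 3 tested contrasts under any alternative run, save *B2m* in cKO against Ctrl TFs in 1% O2 with DESeq2 (1 of 10 members, log2 fold change 0.838). For gesicles against Ctrl in 1% O2, 0 genes were called under each alternative, the replicate block included. For cKO against Ctrl in 1% O2, 14 genes became 239 with DESeq2 (78 higher and 161 lower, against 9 and 5), 53 with *Xist* as a covariate, 33 with the replicate block, 0 in the fit of the 2 groups and 0 to 13 with a library left out. For O2 in cKO, 495 genes became 894 with DESeq2, 830 with the replicate block, 84 in the fit of the 2 groups and 253 to 1115 with a library left out. The 4 contrasts without a test have no calls, and for them the alternatives were read on the median log2 fold change of the 10 genes, which moved by less than the spread between libraries, though for cKO against Ctrl in 20% O2 it ran from -0.103 to 0.075 with a library left out. The cause of these shifts was not tested. *Psmb10* turned to -0.053 for O2 in cKO with the replicate block, which changed no other sign of a member in a tested contrast. Leaving out a library turned *Nlrc5* with gesicles in 1% O2 (-0.483 to 1.866), and for O2 in cKO *B2m* (-0.02 to 0.473), *Tap1* (-0.168 to 0.253), *Psmb10* (-0.351 to 0.189) and *Nlrc5* (-0.245 to 0.439). For O2 in cKO, libraries with the same replicate number correlated at 0.0956, 0.0921 and 0.368, so not above 0.1 in every pair. The mean was 0.185, against -0.0873 for different numbers. *Xist* followed the number across O2 within each genotype but not between genotypes, so the block for cKO against Ctrl joins libraries that differ in *Xist*. Low counts limit *Nlrc5* most, with 4 to 17 in the cKO libraries.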
